A study of Homo sapiens with 27 samples.

Results

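TLE3 was silenced for 48 h in T47D cells, an established luminal breast cancer line that expresses the estrogen and progesterone receptors, and the transcriptome was compared with that of control cells by RNA sequencing. The experiment consists of the 3 T47D libraries labelled siTLE3 and the 3 labelled siNS, 6 of the 27 libraries of a study that applied siTLE3, siFOXA1 and siNS to T47D, MDA-MB-453 and SKBR3 cells. The members were taken from the deposited count columns of these 2 groups, and each group was fitted over all genes. siTLE3 is a SMARTpool, a mixture of siRNAs against TLE3 delivered by reverse transfection, and siNS is a siRNA that targets no gene, delivered in the same way. Both groups thus share the cell line, the transfection and the harvest time. By the labels each group has 3 biological replicates; nothing tells if these were cultures grown on separate days, so that p-values measure only the spread between these libraries. The groups hold 1 pool and no second siRNA or rescue, and effects of the pool on genes other than TLE3 cannot be told apart from loss of TLE3.

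TLE3 belongs to the Groucho family of corepressors, proteins that do not bind DNA themselves but are recruited by transcription factors such as TCF/LEF, HES, RUNX and forkhead proteins, and that silence genes together with histone deacetylases. FOXA1, a pioneer factor that opens chromatin for the estrogen receptor in luminal breast cells, is among the forkhead proteins. AES, a short family member, lacks the repeat domain of the full-length proteins and can act against them.

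The siTLE3 libraries, named 1, 3 and 4 after their deposited columns, held 21745969, 26208135 and 18646841 counted reads, and the siNS libraries 2, 3 and 4 held 20042056, 19205886 and 21472109. On the first principal component, which took 69.2% of the variance, the siTLE3 libraries lay between -44 and -40.4 and the siNS libraries between 40.9 and 43. The epithelial markers were high in all 6 libraries (11 genes, summed level 17170 to 18930 CPM in siTLE3 and 18150 to 18930 CPM in siNS, CPM being counts per 1e+06 reads of the TMM-scaled library). Markers of other cell types were low, with the 8 listed immune markers (of 11) at 2.66 to 2.84 CPM in siTLE3 and 1.92 to 3.54 CPM in siNS, 4 of 6 endothelial markers at 1.56 to 1.75 and 0.924 to 1.92 CPM, and 4 of 5 adipocyte markers at 0.744 to 1.51 and 0.426 to 1.18 CPM. PTPRC, the pan-leukocyte marker, had at most 4 reads in a library, while the receptor genes ESR1 and PGR, which mark this line, had at least 2526 and 3572. The 9 fibroblast markers summed to 78.1 to 84.9 CPM in siTLE3 and 117 to 136 CPM in siNS, most of it COL1A1. LUM had 193, 232 and 169 reads in siTLE3 1, 3 and 4 and 32, 46 and 45 in siNS 2, 3 and 4. COL3A1 had 44, 62 and 56 reads in siTLE3 and 22, 14 and 40 in siNS. COL1A2 and THY1 had at most 15 reads in any library, and PDGFRA, PDGFRB, FAP and DCN at most 5.

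TLE3 (ENSG00000140332, chr15:70340129-70390515, hg19, minus strand) stood at 135, 142 and 130.3 CPM in siNS 2, 3 and 4 and at 38.7, 36.3 and 41.1 CPM in siTLE3 1, 3 and 4. The groups did not overlap, and the log2 fold change of siTLE3 over siNS was -1.81 ± 0.07 (SE, edgeR's quasi-likelihood test, Benjamini-Hochberg adjusted p = 2.42e-10). Below, a value after log2 is such a fold change with its standard error. The other family members moved in different directions. TLE1 rose from 84.6, 83.4 and 84.8 CPM to 136, 135 and 132 CPM, a log2 fold change of 0.67 ± 0.06, and TLE2 rose at 0.60 ± 0.10. AES fell from 162, 159.8 and 158 CPM to 77.3, 80.04 and 88.7 CPM, at log2 -0.96 ± 0.07, and TLE6 fell at log2 -1.08 ± 0.18. None of these genes had overlapping groups, as was the case for 58.8% of all genes tested. TLE4 was too low to be tested. In bulk RNA, fewer cells of a type and less RNA per cell cannot be told apart, here and in every result that follows.

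With 15821 genes tested, 8218 passed an adjusted p of 0.05, which is 51.9% (25.3% rose and 26.6% fell), and all counts of genes below are to be read against these shares. Changes of at least 2-fold were split unevenly, with 1299 genes up (8.21%) and 462 down (2.92%). At 4-fold or more 259 rose and 29 fell, at 8-fold 61 rose and 1 fell, and at 16-fold 16 rose and 1 fell. Direction differed with the level in control cells, in a way that the selection of genes partly fixes. Of 782 genes under 0.5 CPM in siNS, 44.2% rose and none fell, whereas of 2580 genes over 100 CPM 14.7% rose and 50.5% fell. The filter on low counts asks for about 10 reads in at least 3 libraries, so a gene this low in siNS was kept mainly through its siTLE3 reads and had little room to fall. In the deposited table a gene is listed only where at least 1 of the first 2 siTLE3 columns has a read, so that a gene seen in siNS alone is absent from it. The siTLE3 libraries also showed reads from 22370 to 25111 genes and the siNS libraries from 21288 to 22103, and the part of these features in the excess of rises among weakly expressed genes was not tested. With the test restricted to genes with a mean of at least 10 siNS reads, 3905 rose and 3976 fell, and 1008 rose and 437 fell by at least 2-fold.

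**Figure D1:**
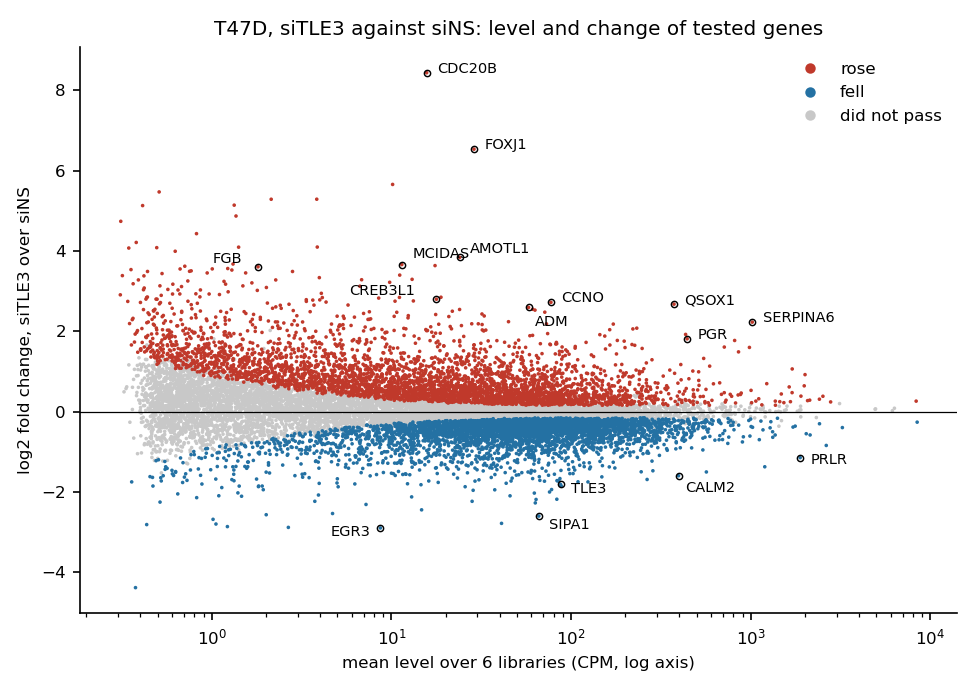
Log2 fold change of siTLE3 over siNS (vertical axis) against the mean level over the 6 libraries in CPM (horizontal log axis), 1 point per tested gene, coloured by whether it rose, fell or did not pass. The points above 4-fold are far more numerous on the upper side (259) than on the lower side (29), and CDC20B and FOXJ1 lie highest among the labelled genes.

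CDC20B and FOXJ1, the largest rises among protein-coding genes with a mean of at least 1 CPM, belong to the program of multiciliated cells. These cells line airways, the oviduct and brain ventricles. In them GMNC and MCIDAS, coiled-coil relatives of geminin, act with E2F4 or E2F5 and DP1 to start centriole amplification, CCNO is a cyclin-like protein needed for mass production of centrioles, and FOXJ1 switches on the genes of the motile axoneme. A neighbouring gene, CDC20B, carries the miR-449 microRNAs in an intron, which belong to the same program and share their seed with miR-34a. The mature microRNAs were not measured by this assay, and their sequences are shown to identify what the CDC20B transcript carries. All 3 lie inside CDC20B in the RefSeq annotation (GRCh38.p14), and capitals mark bases 2 to 8, the seed.
hsa-miR-449a: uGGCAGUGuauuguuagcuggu
hsa-miR-449b-5p: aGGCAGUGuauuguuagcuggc
hsa-miR-449c-5p: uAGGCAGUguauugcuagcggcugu
hsa-miR-34a-5p: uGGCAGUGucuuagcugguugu
The seed GGCAGUG is the same in miR-449a, miR-449b-5p and miR-34a-5p. In miR-449c-5p the same letters start 1 base later, and its bases 2 to 8 read AGGCAGU.

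CDC20B had 1, 0 and 4 reads in siNS 2, 3 and 4 and 749, 850 and 544 reads in siTLE3 1, 3 and 4, or 0.0514, 0 and 0.189 CPM against 33.3, 31.7 and 28.9 CPM. Next to it on chromosome 5, MCIDAS stood at 1.695, 1.497 and 1.799 CPM in siNS and 20.96, 22.8 and 19.7 CPM in siTLE3, and CCNO at 20.8, 17.8 and 22.3 CPM and 136, 129 and 138 CPM. In all 3 genes the groups were far apart, and the libraries of a group lay close together. The log2 fold changes were 8.44 ± 0.26 for CDC20B, 3.66 ± 0.14 for MCIDAS and 2.72 ± 0.08 for CCNO, with adjusted p = 4.37e-11, 1.92e-10 and 4.37e-11. The value for CDC20B rests on 5 control reads and depends on the prior count. FOXJ1, on chromosome 17, went from 0.719, 0.428 and 0.663 CPM to 55.1, 54.8 and 61.1 CPM (log2 6.54 ± 0.14, adjusted p = 3.75e-12). Divided by the deposited gene length, the siTLE3 levels were 77.7 ± 2.85 CPM per kb for CCNO, 21.6 ± 1.35 for FOXJ1, 10.2 ± 0.722 for CDC20B and 10.1 ± 0.737 for MCIDAS (mean ± SD, n = 3). CCNO alone of the 4 was above 1 CPM per kb in control cells, at 11.8 ± 1.32.

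**Figure D2:**
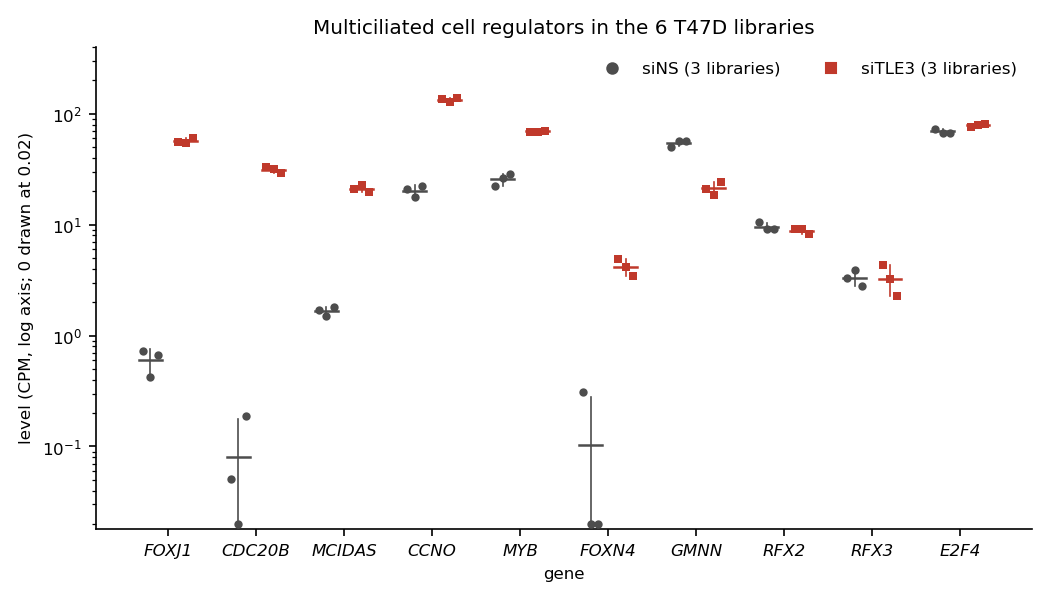
Level of multiciliated cell regulators (CPM, log axis, a value of 0 drawn at 0.02) in each of the 3 siNS (circles) and 3 siTLE3 libraries (squares), with the mean (horizontal line) and SD (vertical line). CDC20B, FOXJ1, MCIDAS and CCNO are separated by wide gaps between the groups, with CCNO rising from 17.8 to 22.3 CPM in siNS to 129 to 138 CPM in siTLE3.

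Most other regulators of this program moved less. Of 20 genes on the list, 17 were tested: 11 rose, 2 fell, 4 did not pass the threshold, with a median log2 fold change of 0.322 beside 0.0119 over all genes. At 2-fold or more 6 rose, among them CDC20B, FOXJ1, MCIDAS and CCNO. GMNC was too low to be tested, with 3, 1 and 1 reads in siTLE3 1, 3 and 4 and 1, 2 and 2 in siNS 2, 3 and 4. CCDC67 and RFX4 were also too low. TP73, a transcription factor upstream of FOXJ1, rose at log2 0.75 ± 0.10, PLK4, the kinase that starts centriole assembly, at log2 0.50 ± 0.09, and the DP1 gene TFDP1 at log2 0.32 ± 0.06. E2F4 rose at log2 0.18 ± 0.06 and E2F5 fell at log2 -0.32 ± 0.08. GMNN, which encodes geminin, the inhibitor of replication licensing that also binds MCIDAS, fell from 50.3, 56.5 and 57.1 CPM to 21.01, 18.5 and 24.2 CPM (log2 -1.37 ± 0.10, adjusted p = 5.71e-08), with no overlap. RFX2, RFX3, CEP152 and CCDC78 did not pass, with log2 fold changes between -0.11 and 0.10. Restricted to genes with at least 10 mean siNS reads, the list had 9 risen and 2 fallen members.

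The structural genes of motile cilia rose more often than they fell, and several stayed at low levels. Of 66 axoneme genes 47 were tested; 24 of them rose, 1 fell, and for 22 the test was not passed, with a median of 0.490, and 11 of the tested members were under 1 CPM in control cells. DNAI1, an intermediate chain of the outer dynein arm, went from 1.52 ± 0.5497 to 4.54 ± 0.545 CPM (mean ± SD, n = 3, log2 1.57 ± 0.25), and the dynein heavy chain gene DNAH5 from 4.24 ± 0.647 to 10.6 ± 1.97 CPM (log2 1.33 ± 0.17). DNAAF1, a dynein assembly factor, rose at log2 1.59 ± 0.21, the central pair gene HYDIN at log2 1.19 ± 0.23, the radial spoke gene RSPH4A at log2 0.91 ± 0.34, and CCDC39 and CCDC40, which set the spacing along the doublets, at log2 0.92 ± 0.18 and log2 0.56 ± 0.12. The summed level of the 62 listed genes was 466.0 to 489.5 CPM in siTLE3 and 368.7 to 383.3 CPM in siNS, a modest gap without overlap. DNALI1 fell at log2 -0.34 ± 0.08. RSPH1, DNAAF3 and ZMYND10 were tested and did not pass, with log2 0.21 ± 0.21, log2 0.13 ± 0.20 and log2 -0.09 ± 0.16. Genes of intraflagellar transport and of the BBSome, which every primary cilium uses, did not share this direction: among 26 tested, 1 rose (IFT46, log2 0.41 ± 0.08), 10 fell and 15 did not pass, with a median of -0.178. The kinesin-2 motor genes KIF3A and KIF3B fell at log2 -1.03 ± 0.07 and log2 -0.48 ± 0.07.

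The genes around CDC20B, MCIDAS and CCNO were read in genome order (hg19, within the stretch of 8 tested genes). CDC20B lies at chr5:54408799-54469005, MCIDAS at chr5:54515442-54523143 and CCNO at chr5:54526980-54529508, all on the minus strand. Of the 8 genes 7 rose and none fell, in a stretch chosen around CDC20B because it had risen. RP11-506H20.1, annotated antisense and starting next to CCNO, rose from 0.205, 0.1603 and 0.189 CPM to 1.47, 1.94 and 1.22 CPM (log2 3.03 ± 0.43). It and CDC20B were under 0.5 CPM in siNS, where the filter left little room to fall. GPX8, which lies within the span of CDC20B on the other strand, rose at log2 0.32 ± 0.09, DHX29 at log2 0.41 ± 0.07 and PPAP2A, a lipid phosphatase gene at the far end, at log2 1.90 ± 0.14. SKIV2L2 between them did not pass (log2 -0.05 ± 0.06). In siTLE3 against the siFOXA1 libraries of T47D, DHX29 did not differ (log2 0.006). In the same comparison PPAP2A was lower in siTLE3 (log2 -0.61) and GPX8 higher (log2 0.54). Under siTLE3 in MDA-MB-453 DHX29 rose at log2 0.40, and PPAP2A and GPX8 did not pass. Strand use in counting is not given in the sources used here, and reads of overlapping antisense genes cannot be told apart without it. This applies to GPX8 within CDC20B, to RP11-506H20.1, which overlaps DHX29 on the other strand, to the end of PPAP2A, which overlaps SKIV2L2, and to RNF157-AS1, which overlaps FOXJ1 and rose at log2 3.04 ± 0.67.

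**Figure D3:**
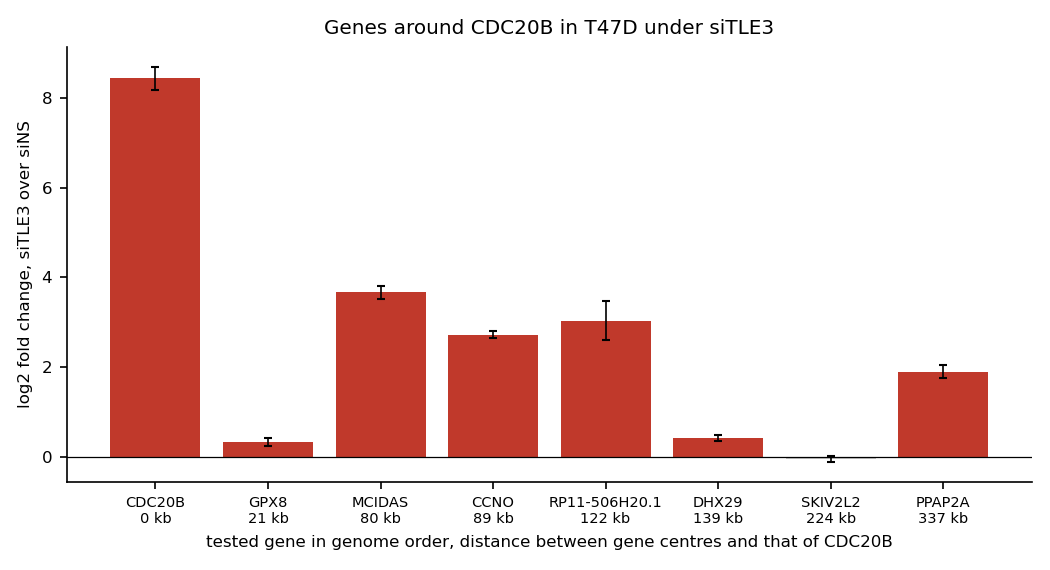
Log2 fold change of siTLE3 over siNS with its standard error for the 8 tested genes around CDC20B, in genome order, with the distance of each gene's centre from that of CDC20B in kb. CDC20B (8.44), MCIDAS (3.66), RP11-506H20.1 (3.03) and CCNO (2.72) tower over GPX8 (0.32), DHX29 (0.41) and SKIV2L2 (-0.05), with PPAP2A at 1.90.

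Promoter windows of MCIDAS and CCNO are shown because each holds an RFX match, out of 4 windows searched in this stretch (RefSeq, GRCh38.p14, minus strand, 250 bases before to 50 after the annotated start). Capitals mark the letters GTTGCC, the core of the site bound by RFX factors in ciliary promoters. In CCNO the capitals run on over the full X-box, in which a second, inverted arm follows after a short spacer.
MCIDAS, chr5:55227266-55227565: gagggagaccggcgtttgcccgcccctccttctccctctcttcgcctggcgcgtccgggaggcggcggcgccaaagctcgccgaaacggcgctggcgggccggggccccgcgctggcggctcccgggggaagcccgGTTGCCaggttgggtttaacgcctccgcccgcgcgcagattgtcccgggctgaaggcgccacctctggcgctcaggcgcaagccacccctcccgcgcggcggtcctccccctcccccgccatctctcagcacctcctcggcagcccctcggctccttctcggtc
CCNO, chr5:55233559-55233858: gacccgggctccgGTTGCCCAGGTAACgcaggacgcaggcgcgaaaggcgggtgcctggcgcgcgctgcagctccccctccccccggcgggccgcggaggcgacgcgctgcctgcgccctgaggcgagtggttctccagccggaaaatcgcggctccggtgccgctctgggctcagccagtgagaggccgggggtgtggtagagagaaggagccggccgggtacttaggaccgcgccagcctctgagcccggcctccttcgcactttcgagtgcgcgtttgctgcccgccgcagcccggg
The letters GTTGCC begin 114 bases before the start in MCIDAS and 237 bases before it in CCNO. On either strand they occur in 12.2% of 35116 promoter windows, and the full X-box, which contains them, in 0.0883% (31 windows). The forkhead letters TGTTTAC, present on either strand in 3.42% of all windows, were in none of the 4. Likewise absent from all 4 were the letters CTTTGAT of TCF factors, present in 2.62%, and a second forkhead word, TGTTTGC, present in 3.89%. An E2F motif of 8 letters, present in 0.652% of windows, matched on the opposite strand of the MCIDAS window 183 bases before the start. The window of CDC20B (chr5:55173128-55173427) and that of a second annotated start of CCNO (chr5:55232942-55233241) held none of the motifs searched. The matches are descriptions of sequence, and binding was not measured here.

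Of 12 tested corepressor genes, partners through which Groucho proteins act, 3 rose, 6 fell and 3 did not pass. Over all genes, 39% fell and 23.2% rose at 20 to 100 CPM in siNS, and 50.5% fell and 14.7% rose over 100 CPM. The part of expression level in the corepressor count was not tested. SIN3A and SIN3B, scaffolds of a histone deacetylase complex, fell at log2 -0.51 ± 0.06 and log2 -0.51 ± 0.08, and the deacetylase genes HDAC1, HDAC2 and HDAC3 at log2 -0.47 ± 0.06, log2 -0.39 ± 0.06 and log2 -0.41 ± 0.06. CTBP2 rose from 76.1, 76.4 and 73.4 CPM to 115, 119 and 116 CPM (log2 0.63 ± 0.06). Among 24 tested genes of factor families that recruit Groucho proteins, 8 rose, 8 fell and 8 did not pass. Without siTLE3 1 the falls numbered 4, and without siNS 2 or siNS 4 they numbered 5. RUNX1 rose from 73.8, 80.5 and 81.9 CPM to 259, 237 and 201 CPM (log2 1.56 ± 0.09) and RUNX2 fell at log2 -0.39 ± 0.11. FOXC1 rose at log2 1.27 ± 0.11 and HHEX at log2 0.97 ± 0.21, while TBX3 fell at log2 -0.64 ± 0.07 and VAX2 at log2 -0.79 ± 0.17.

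FOXA1 rose from 383, 387 and 398 CPM in siNS to 566, 597 and 538 CPM in siTLE3 (log2 0.54 ± 0.06, adjusted p = 9.08e-06), with no overlap. Luminal lineage genes were divided, 13 risen, 8 fallen and 9 not passed of 30 tested, with a median of 0.180, and without siNS 2 the fallen numbered 5. GATA3 rose at log2 0.43 ± 0.06 and XBP1 at log2 0.61 ± 0.06. CREB3L1, an endoplasmic reticulum membrane factor, rose from 4.73, 5.29 and 3.46 CPM to 31.3, 33.2 and 28.8 CPM (log2 2.80 ± 0.13). The adhesion genes EPCAM and CDH1 fell at log2 -0.59 ± 0.06 and log2 -0.39 ± 0.06, and the keratin genes KRT18 and KRT19 did not pass, at log2 -0.13 ± 0.07 and log2 0.06 ± 0.07. PRLR, the prolactin receptor, fell from 2498, 2854 and 2434 CPM to 1328, 1248 and 937 CPM (log2 -1.15 ± 0.11).

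The nuclear receptors split evenly, with 8 risen, 8 fallen and 7 not passed of 23 tested. PGR (1.81), ESR1 (0.96), PPARA (1.29), ESR2 (1.15), NR1H3 (0.80), RXRA (0.37), NR3C1 (0.36) and THRB (0.29) rose, with the log2 fold change in parentheses. VDR fell from 241, 225 and 234 CPM to 155, 148 and 145 CPM (log2 -0.64 ± 0.06), and the orphan receptor NR2F1 fell at log2 -1.26 ± 0.12. NR3C2, PPARD, THRA, NR4A1 and ESRRA also fell, with log2 fold changes from -0.97 to -0.25. RARA, RARB, RARG, NR2F2, NR2F6, NR5A2 and ESRRG did not pass. The rises of NR3C1 and THRB and the falls of NR4A1 and ESRRA were lost in at least 1 alternative setting.

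Genes that respond to estrogen did not move as a block. Of 48 tested, 21 were up and 14 down past the threshold, and 13 did not reach it (median 0.090). The potassium channel gene KCNK5 rose from 5.497, 6.09 and 5.54 CPM to 19.3, 21.5 and 22.4 CPM (log2 1.88 ± 0.11), HEY2 rose at log2 1.04 ± 0.07, and NRIP1, a receptor corepressor, at log2 0.73 ± 0.09. STC1, a secreted glycoprotein gene, fell from 43.001, 42.97 and 35.2 CPM to 10.7, 11.4 and 10.96 CPM (log2 -1.87 ± 0.10), the zinc transporter gene SLC39A6 fell at log2 -1.34 ± 0.07, and OLFM1, MYBL1 and CXCL12 at log2 -1.47 ± 0.07, log2 -1.12 ± 0.06 and log2 -1.09 ± 0.07. CCND1, which encodes cyclin D1, fell from 458, 459.9 and 442 CPM to 227, 242 and 229 CPM (log2 -0.96 ± 0.06). GREB1 fell at log2 -0.47 ± 0.09, and MYC and CTSD did not pass, at log2 -0.13 ± 0.07 and log2 -0.16 ± 0.07.

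Genes for secreted and mucosal proteins were higher in most cases. Of 14 tested members 11 rose, none fell and 3 did not pass, with a median of 1.017, and 16 of the 30 listed genes were not tested. PIP, the prolactin-induced protein, rose from 478, 427 and 443 CPM to 1111, 1288 and 1381 CPM (log2 1.49 ± 0.08). AGR2, a disulfide isomerase needed for mucin folding, rose from 389, 371 and 349 CPM to 734, 767 and 932 CPM (log2 1.13 ± 0.09). The trefoil factor genes TFF1 and TFF3, neighbours on chromosome 21, rose at log2 1.11 ± 0.09 and log2 0.95 ± 0.09. TMPRSS3 next to them rose at log2 1.05 ± 0.13 and ABCG1 fell at log2 -1.06 ± 0.09. The lipocalin gene LCN2, an antibacterial siderophore binder, and the mucin gene MUC5B did not pass, at log2 0.29 ± 0.32 and log2 0.48 ± 0.30.

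Several serine protease inhibitor and kallikrein genes lie next to each other and were read in genome order. In the SERPINA cluster on chromosome 14 (hg19), 5 of 8 tested genes rose and 1 fell. SERPINA6, which encodes the corticosteroid-binding globulin, went from 383, 365 and 327 CPM in siNS to 1540.1, 1625 and 1873 CPM in siTLE3, at log2 2.23 ± 0.09. SERPINA10 rose from 2.26, 2.25 and 3.08 CPM to 14.6, 11.7 and 11.2 CPM (log2 2.30 ± 0.17), SERPINA3, antichymotrypsin, from 3.49, 2.35 and 2.27 CPM to 16.02, 21.3 and 21.02 CPM (log2 2.85 ± 0.17), and SERPINA1, antitrypsin, rose at log2 1.01 ± 0.07. Each of these had all siTLE3 libraries above all siNS libraries. SERPINA11, in the middle of the cluster, did not pass (log2 -0.10 ± 0.28), and PPP4R4 at its edge fell at log2 -1.13 ± 0.08. In the kallikrein cluster on chromosome 19 all 6 tested KLK genes rose and CTU1 at its edge did not pass (log2 0.27 ± 0.12). KLK10, a secreted serine protease gene, rose from 4.21, 4.33 and 5.21 CPM to 34.8, 32.9 and 31.7 CPM (log2 2.85 ± 0.11), while KLK8, KLK11, KLK13 and KLK14 stayed at or below 2.09 CPM in every library, with log2 fold changes of 2.91, 3.56, 3.18 and 1.47. The clusters were chosen around genes that had risen. KLK5, KLK8, KLK11, KLK13 and KLK14 averaged 0.068 to 0.386 CPM in siNS, where the filter left little room to fall. KLK6 and KLK7 were too low to be tested, with 0, 4 and 0 and with 4, 1 and 3 reads in siTLE3 1, 3 and 4. In siNS 2, 3 and 4 they had 2, 1 and 5 and 4, 5 and 1 reads.

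Among the most precisely measured rises were genes of secretion and membranes. QSOX1, a sulfhydryl oxidase that makes disulfide bonds in secreted proteins, went from 98.6, 103 and 101 CPM to 658, 653 and 628 CPM (log2 2.68 ± 0.07, adjusted p = 9.02e-12). SDCBP, the scaffold protein syntenin, rose from 18.5, 17.1 and 20.1 CPM to 104, 109 and 109 CPM (log2 2.53 ± 0.08), and SCAMP2, a secretory carrier membrane protein, from 21.6, 23.7 and 19.98 CPM to 119.9, 118 and 125 CPM (log2 2.48 ± 0.08). The groups were separated by several times the spread within them in each case. QSOX1, SDCBP and SCAMP2 also rose under siTLE3 in MDA-MB-453 (log2 1.06, 1.70 and 1.82), and their siFOXA1 levels in T47D are given below. AMOTL1, an angiomotin-like protein that binds YAP, rose from 3.39, 3.05 and 2.94 CPM to 47.05, 48.3 and 39.004 CPM (log2 3.84 ± 0.12). SFXN2, a mitochondrial membrane transporter, rose at log2 2.18 ± 0.07, and CYP1B1, a cytochrome that hydroxylates estradiol, at log2 2.08 ± 0.07. At high levels the tight junction gene CLDN1 rose from 493, 505 and 466 CPM to 1427, 1512 and 1493 CPM (log2 1.60 ± 0.06), CDV3 rose at log2 1.77 ± 0.06, the kinase gene PAK2 at log2 1.32 ± 0.07 and the cytoplasmic actin gene ACTG1 at log2 1.06 ± 0.07.

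The falls named here had other roles. SIPA1, the protein-coding fall with the smallest p, went from 108, 114 and 118 CPM to 18.9, 18.6 and 18.5 CPM (log2 -2.60 ± 0.07). SPTSSA, a small subunit of serine palmitoyltransferase, the enzyme that starts sphingolipid synthesis, fell from 107, 101 and 107 CPM to 22.8, 20.9 and 21.2 CPM (log2 -2.27 ± 0.07). DEGS2, another sphingolipid enzyme gene, fell at log2 -1.23 ± 0.07. PHTF2 fell from 137, 144 and 128 CPM to 30.6, 30.7 and 28.7 CPM (log2 -2.18 ± 0.07), and TMED5, a cargo receptor of the early secretory pathway, from 107, 104 and 103 CPM to 21.2, 24.5 and 23.04 CPM (log2 -2.19 ± 0.07). RYBP, a Polycomb subunit gene, fell at log2 -2.03 ± 0.07, CASC4 at log2 -2.003 ± 0.07, the calcium pump gene ATP2A3 at log2 -1.85 ± 0.07 and KALRN at log2 -2.45 ± 0.12. CALM2, 1 of the calmodulin genes, fell from 627, 588 and 571 CPM to 180.1, 189 and 221 CPM (log2 -1.60 ± 0.08), and ACTR2, a subunit of the actin-branching Arp2/3 complex, from 407, 426 and 379 CPM to 128, 124 and 123 CPM (log2 -1.69 ± 0.07). None of these genes had overlapping groups.

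Wnt pathway genes rose and fell in similar numbers, 12 and 10 of 26 tested, with 4 not passed and a median of 0.150. Of the tested members 8 were under 1 CPM in siNS, and with at least 10 mean siNS reads 10 rose and 10 fell. FZD5, a Wnt receptor, rose from 10.6, 8.12 and 8.43 CPM to 42.9, 41.4 and 35.6 CPM (log2 2.14 ± 0.11) and the nuclear partner of beta-catenin LEF1 from 4.06, 4.86 and 4.55 CPM to 13.7, 16.5 and 12.9 CPM (log2 1.68 ± 0.14). CTNNB1, beta-catenin itself, rose at log2 0.88 ± 0.07. The ligand gene WNT4 rose at log2 1.23 ± 0.16 and WNT7B fell at log2 -1.18 ± 0.08, the receptor genes FZD2 and FZD7 fell at log2 -1.03 ± 0.08 and log2 -0.68 ± 0.11, and TCF7L1 and TCF7L2 fell at log2 -0.58 ± 0.07 and log2 -0.63 ± 0.09. In the Notch list 14 of 22 tested genes were higher and 3 lower past the threshold, with a median of 0.520. With at least 10 mean siNS reads 12 were higher and 3 lower. The DNA-binding partner of Notch, RBPJ, rose at log2 0.90 ± 0.07, its coactivator MAML1 at log2 0.79 ± 0.08 and the receptor gene NOTCH2 at log2 0.51 ± 0.11. Of the targets, HES2 rose at log2 1.27 ± 0.20, HES1 did not pass (log2 0.11 ± 0.08), and NRARP, a feedback inhibitor, fell from 62.9, 67.5 and 69.1 CPM to 22.6, 26.3 and 26.3 CPM (log2 -1.41 ± 0.08).

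Feedback and immediate early genes of the MAPK pathway gave 19 risen, 5 fallen and 8 not passed of 32 tested, with a median of 0.521. Of the tested members 8 were under 1 CPM in siNS, where the filter left little room to fall. Restricted to genes with at least 10 mean siNS reads, the list gave 16 risen and 5 fallen. The Sprouty gene SPRY2 rose from 2.72, 3.15 and 2.94 CPM to 6.28, 8.68 and 8.89 CPM (log2 1.43 ± 0.18), ETV4 and ETV5, ERK-responsive ETS factors, rose at log2 2.98 ± 0.42 and log2 1.91 ± 0.43 from levels under 1 CPM, and KLF4 and KLF6 at log2 1.66 ± 0.11 and log2 1.22 ± 0.08. The phosphatase gene DUSP5 and PHLDA1 fell at log2 -1.11 ± 0.09 and log2 -1.17 ± 0.07, and JUNB, EGR1 and IER2 did not pass. Among receptors and ligands of the ERBB family, EGFR rose from 12.3, 15.02 and 12.4 CPM to 24.4, 25.1 and 22.5 CPM (log2 0.86 ± 0.10). ERBB3 fell from 355, 353 and 334 CPM to 212, 213 and 203 CPM (log2 -0.73 ± 0.06), and the ligand genes TGFA and EGF fell at log2 -1.45 ± 0.07 and log2 -1.44 ± 0.09. ERBB2 rose at log2 0.19 ± 0.06.

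NF-kB subunits and targets were mostly higher, 18 of 23 tested, with 1 fallen, 4 not passed and a median of 0.659. The subunit genes RELA, RELB, NFKB1 and NFKB2 rose at log2 0.66 ± 0.07, log2 1.08 ± 0.20, log2 0.38 ± 0.08 and log2 0.84 ± 0.07. RELA stood at 121, 114 and 112 CPM in siNS and 174, 179.6 and 194 CPM in siTLE3. The inhibitor genes NFKBIA and TNFAIP3 rose at log2 0.63 ± 0.08 and log2 1.23 ± 0.22. TNF went from 1.23, 0.481 and 1.52 CPM to 2.72, 3.43 and 3.72 CPM (log2 1.59 ± 0.33) and ICAM1 from 3.08, 3.21 and 4.02 CPM to 10.4, 8.16 and 8.57 CPM (log2 1.39 ± 0.16), low levels with no overlap. SOD2 fell at log2 -0.60 ± 0.08, and REL, CXCL10 and CCL5 did not pass. Restricted to genes with at least 10 mean siNS reads, the list gave 14 risen and 1 fallen. Basal and squamous genes gave 14 risen, 1 fallen and 8 not passed of 23 tested (median 0.572), out of 36 on the list. Of the tested members 7 were under 1 CPM in siNS, and with at least 10 mean siNS reads 11 rose and 0 fell. The basal keratin genes KRT5 and KRT14, KRT6A and DSC3 were too low to be tested, and DSG3 was not listed. LAMA3 and LAMB3, laminin chains of the basement membrane, rose at log2 0.77 ± 0.11 and log2 0.71 ± 0.10, and TP63, the master factor of basal cells, did not pass at 1.15 ± 0.317 and 0.697 ± 0.256 CPM. Of 23 mesenchymal genes 15 were tested and evenly split, 3 up and 3 down past the threshold. Among the fallen, SNAI1 and TWIST1 were at log2 -0.86 ± 0.23 and log2 -1.06 ± 0.23. SNAI2, too low to be tested, had 15, 17 and 8 reads in siTLE3 1, 3 and 4 and 1, 3 and 0 in siNS 2, 3 and 4. ZEB1 and ZEB2 were also too low, and TWIST2 was not listed. Of the fibroblast markers COL1A1 fell at log2 -0.84 ± 0.07, while LUM and COL3A1 rose at log2 2.07 ± 0.17 and log2 0.92 ± 0.33, the last of which was lost in several alternatives.

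**Figure D4:**
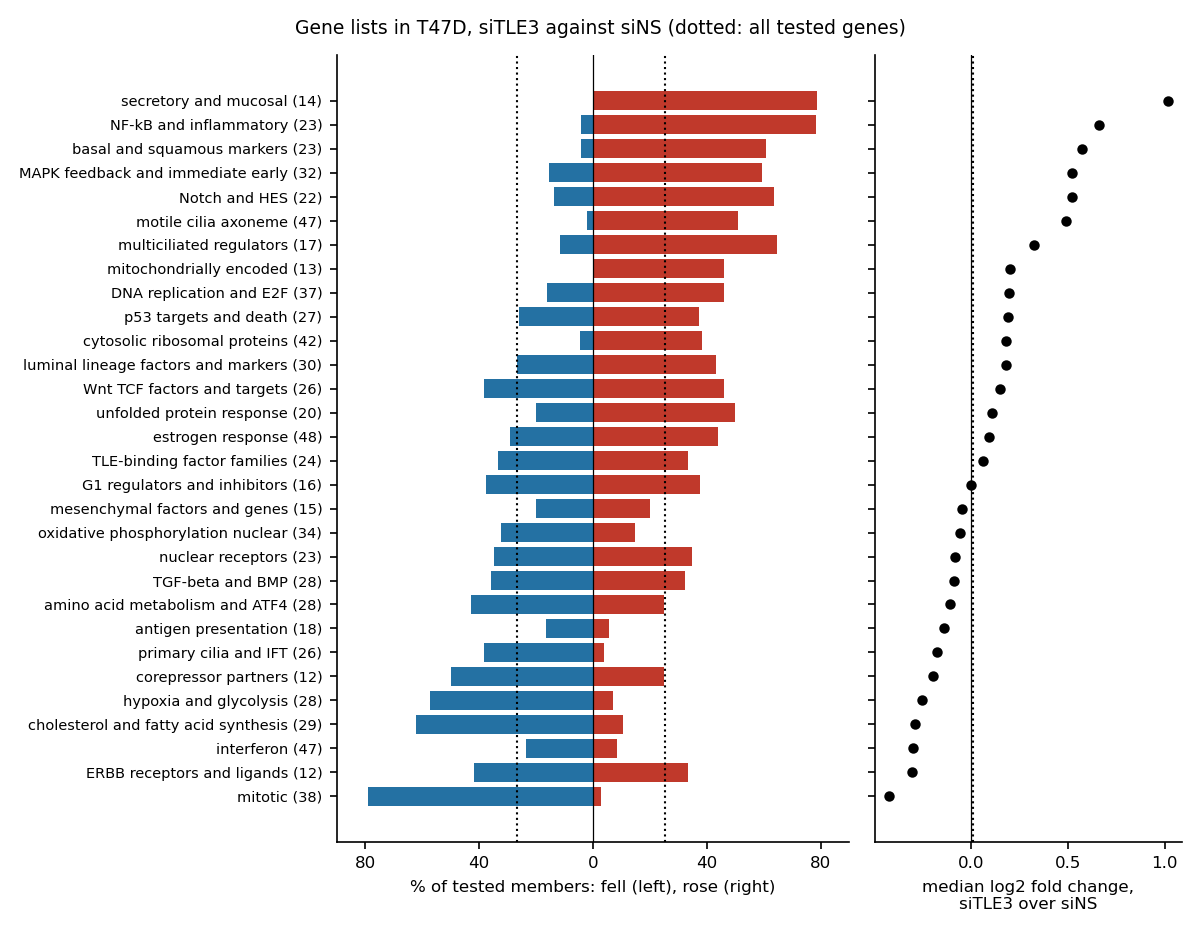
For each gene list, the percentage of tested members that fell (left) and rose (right) in the left panel, with the number tested in brackets, and the median log2 fold change in the right panel, where the dotted line is the median over all genes, 0.0119. The mitotic list stands out on the falling side (30 of 38, median -0.427) and the secretory list on the rising side (11 of 14, median 1.017).

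Genes of cell division fell together while those of DNA replication did not. Among the 38 mitotic genes there were 30 falls, 1 rise and 7 below the threshold, with a median of -0.427, and with each library left out in turn 24 to 33 fell. The summed mitotic level was 3755 to 4097 CPM in siTLE3 and 4892 to 5487 CPM in siNS. TTK, a spindle checkpoint kinase, went from 61.9, 58.1 and 58.05 CPM to 30.98, 31.8 and 32.6 CPM (log2 -0.90 ± 0.07), MAD2L1 of the same checkpoint from 52.7, 48.1 and 41.6 CPM to 24.6, 24.1 and 28.2 CPM (log2 -0.89 ± 0.10), and CCNB1, cyclin B1, from 266, 266 and 249.8 CPM to 157, 164 and 191 CPM (log2 -0.61 ± 0.08). All 3 siTLE3 libraries lay below all 3 siNS libraries in each. PLK1 was the member that rose, at log2 0.21 ± 0.07, and CDK1, AURKB and BUB1B did not pass. The 37 replication genes split into 17 risen, 6 fallen and 14 not called, with a median of 0.195. E2F7, a repressive E2F factor, rose from 17.7, 15.5 and 14.1 CPM to 54.1, 56.6 and 49.2 CPM (log2 1.76 ± 0.09), GINS1 of the replicative helicase from 36.3, 39.6 and 34.6 CPM to 74.1, 74.9 and 74.4 CPM (log2 1.02 ± 0.07), and UHRF1 from 44.1, 44.4 and 38.5 CPM to 90.3, 81.9 and 92.4 CPM (log2 1.06 ± 0.08). The helicase subunits were divided: MCM2 and MCM7 rose at log2 0.39 ± 0.07 and log2 0.39 ± 0.08, MCM3 and MCM6 fell at log2 -0.51 ± 0.06 and log2 -0.43 ± 0.07, and MCM4 and MCM5 did not pass. Among G1 genes, the kinase gene CDK6 rose from 3.03, 4.01 and 4.26 CPM to 15.2, 16.2 and 12.6 CPM (log2 1.96 ± 0.15) and CDKN1A, the p21 inhibitor gene, from 90.7, 91.2 and 86.8 CPM to 164, 181 and 175 CPM (log2 0.95 ± 0.06), whereas the INK4 inhibitor genes CDKN2B, CDKN2C and CDKN2D fell at log2 -1.24 ± 0.12, log2 -0.70 ± 0.10 and log2 -1.49 ± 0.15.

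Whether the same siRNA pool moved these genes alike in MDA-MB-453, a breast cancer line without estrogen receptor, was tested with the line-by-siRNA term over 12 libraries. It passed for 3620 of 16340 genes, 22.2% (8.65% with a higher and 13.5% with a lower effect in T47D). TLE3 itself fell more in MDA-MB-453, at log2 -2.31 beside -1.81 in T47D (difference log2 0.48 ± 0.10, adjusted p = 0.0016), and the part of this in the differences below was not tested. For the mitotic list the line-by-siRNA term passed for 35 of 38 genes, all lower in T47D, and 34 to 37 were lower with each library left out. In MDA-MB-453 alone 27 mitotic genes rose and none fell (median 0.417), where 32% of all tested genes passed. TTK had log2 fold changes of -0.90 in T47D and 0.08 in MDA-MB-453, a difference of -0.9996 ± 0.12 (adjusted p = 9.35e-06), and TOP2A -0.57 and 0.41, a difference of -1.004 ± 0.16. For replication genes the difference passed for 15 of 37, with 14 lower in T47D, a count that ranged from 4 (without T47D siNS 2) to 22 (without MDA-MB-453 siNS 2) and was 9 or less without 8 of the 12 libraries. Of 17 NF-kB genes tested in both lines 11 had a higher effect in T47D and none a lower one. Of 29 cholesterol and fatty acid genes 18 had a lower effect in T47D and none a higher one; without T47D siNS 3 the count was 11, and without MDA-MB-453 siTLE3 3 it was 14, with 1 higher. In T47D 18 of these 29 fell, 3 rose and 8 did not pass (median -0.289).

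**Figure D5:**
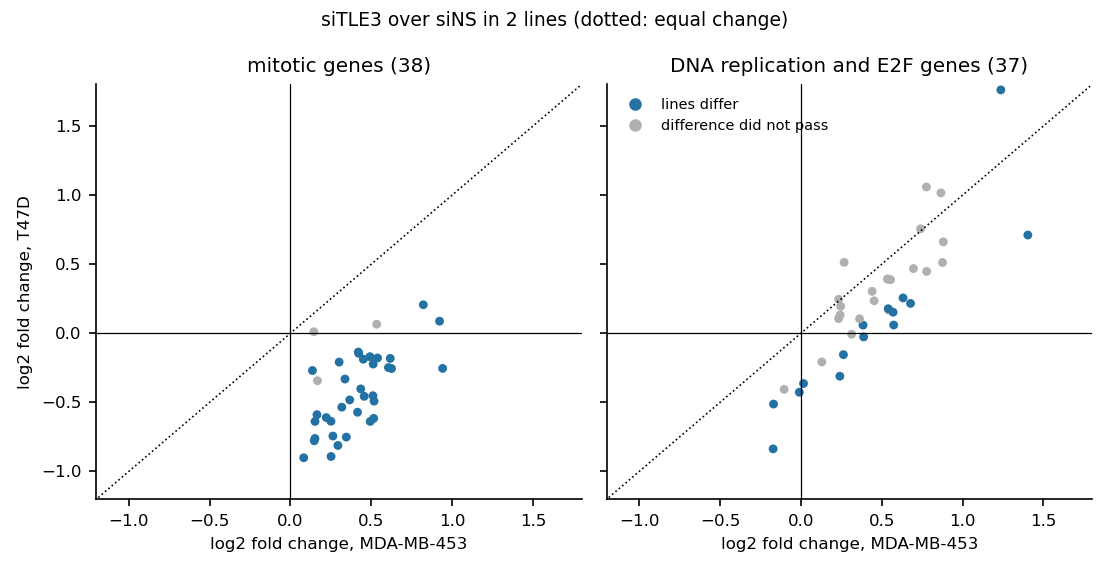
Log2 fold change of siTLE3 over siNS in T47D (vertical axis) against that in MDA-MB-453 (horizontal axis) for mitotic and replication genes, 1 point per gene, coloured where the difference between lines passed. Mitotic points lie below the dotted line of equal change, with 35 of 38 coloured, and replication points lie closer to it, with 15 of 37 coloured.

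The rise at the CCNO locus also differed between the lines. In MDA-MB-453 CCNO stood at 41.2 ± 1.52 CPM in siNS and 43.3 ± 1.57 CPM in siTLE3 (log2 fold change 0.07, adjusted p = 0.516), and MCIDAS at 9.16 ± 0.4495 and 10.9 ± 1.85 CPM (0.25, adjusted p = 0.206). The difference of the effects was log2 2.63 ± 0.11 for CCNO and log2 3.39 ± 0.21 for MCIDAS (adjusted p = 7.07e-12 and 1.06e-09). CDC20B and FOXJ1 were below the filter in MDA-MB-453 alone. In the fit over 12 libraries, which kept them, the difference was log2 3.77 ± 1.28 for FOXJ1 (adjusted p = 0.0402) and log2 4.89 ± 35.69 for CDC20B (adjusted p = 0.945), the latter without usable precision. GMNN fell in both lines, at log2 -1.37 and -0.57, with a larger effect in T47D (difference log2 -0.81 ± 0.15). TLE1 rose in both, at log2 0.67 and 0.60, and the difference did not pass (log2 0.06 ± 0.08). FOXA1 rose in T47D and did not pass in MDA-MB-453 (log2 0.03), and the difference was log2 0.49 ± 0.10 (adjusted p = 0.001). PRLR fell in both lines, at log2 -1.15 and -1.02.

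A direct comparison of the siTLE3 libraries with the 3 T47D libraries given siFOXA1, which does not use siNS, asked which genes differ between both siRNAs. A difference may come from either siRNA, and this comparison alone cannot tell which. The test passed for 7119 of 16053 genes, 44.3% (22.5% higher and 21.8% lower in siTLE3). The comparisons of siTLE3 and of siFOXA1 with control share the same siNS libraries, so their overlap is not given. The multiciliated regulators were higher in siTLE3 for 10 of 16 tested genes and lower for 3, and axoneme genes were higher for 26 of 46 and lower for 2. CCNO stood at 21.9, 20.7 and 20.9 CPM in siFOXA1 1, 2 and 3, below all siTLE3 libraries and within the range of siNS, and the difference was log2 2.66 ± 0.08 (adjusted p = 8.33e-10). MCIDAS, at 2.77, 2.42 and 2.07 CPM in siFOXA1, differed by log2 3.13 ± 0.14, and FOXJ1, at 0.323, 0.186 and 0.0471 CPM, by log2 8.22 ± 0.21. CREB3L1 stood at 1.38, 1.21 and 1.601 CPM in siFOXA1, with a difference of log2 4.47 ± 0.14. QSOX1 stood at 374, 369.7 and 373 CPM in siFOXA1, between siNS and siTLE3, and differed by log2 0.80 ± 0.07. SDCBP, at 70.3, 62.6 and 75.4 CPM, and SCAMP2, at 62.3, 66.4 and 63 CPM, also lay between siNS and siTLE3. They differed by log2 0.63 ± 0.08 and log2 0.92 ± 0.07. Whether such shared rises rest on the shared siNS libraries was not tested. PITPNM1 and GOLM1 did not pass, with differences of log2 -0.05 ± 0.09 and log2 0.05 ± 0.07. The basal and squamous genes were lower in siTLE3 than in siFOXA1 for 15 of 23 tested and higher for 6. Replication genes were higher in siTLE3 for 35 of 37 and lower for 1 (median log2 0.786). Mitotic genes, most of which fell under siTLE3 against siNS, were nevertheless higher than in siFOXA1 for 23 of 38 and lower for 1 (median log2 0.306). TLE1 was higher in siTLE3 by log2 1.43 ± 0.07, with 50.3, 50.8 and 48.4 CPM in siFOXA1.

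The glycolysis, amino acid and nuclear oxidative phosphorylation lists held more falls than rises, beside 26.6% fallen and 25.3% risen over all genes. Of all genes at 20 to 100 CPM in siNS 39% fell and 23.2% rose. Over 100 CPM 50.5% fell and 14.7% rose. The part of expression level in the counts of these lists was not tested. Of 28 hypoxia and glycolysis genes 16 fell, 2 rose and 10 did not pass (median -0.255). The glucose transporter gene SLC2A1 fell from 132, 122 and 123 CPM to 64.98, 70.6 and 69.4 CPM (log2 -0.88 ± 0.07), the hexokinase gene HK2 from 81.9, 79.1 and 85.7 CPM to 42.1, 40.1 and 35.9 CPM (log2 -1.06 ± 0.07), and VEGFA at log2 -0.89 ± 0.09, while PFKFB3, which raises glycolytic flux, rose at log2 0.97 ± 0.06. LDHA, PKM and ENO1 did not pass. Among 28 amino acid genes 7 rose and 12 fell, with the serine synthesis genes PSAT1, PSPH and PHGDH at log2 -0.97 ± 0.08, log2 -0.67 ± 0.08 and log2 -0.40 ± 0.08 and the arginine transporter gene SLC7A2 up from 5.03, 5.67 and 3.31 CPM to 19.1, 20.7 and 18.4 CPM (log2 2.06 ± 0.16). Of 34 nuclear genes of oxidative phosphorylation 5 rose, 11 fell and 18 did not pass, with SDHA and SDHB of complex II at log2 -0.69 ± 0.06 and log2 -0.67 ± 0.06. Of the 13 mitochondrially encoded genes 6 rose and none fell, and 1 rose when siNS 4 was left out. The mitochondrial share of reads was 3.52% to 3.92% in siTLE3 and 2.82% to 3.28% in siNS, and its part in that count was not tested. Cytosolic ribosomal protein genes gave 16 risen, 2 fallen and 24 not passed of 42, with 28 called without siTLE3 1 and 11 without siTLE3 3, siNS 2 or siNS 4.

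Interferon-stimulated genes, which T47D cells of both groups expressed at high level, varied between libraries of the same group, and the direction of their calls changed with the library left out. Their summed level was 14950, 9047 and 18710 CPM in siNS 2, 3 and 4 and 11350, 13630 and 9191 CPM in siTLE3 1, 3 and 4. siNS 3 thus lay below every siTLE3 library and the other siNS libraries above all of them. With all libraries 4 of 47 genes rose, 11 fell and 32 did not pass (median -0.302). Without siNS 3, 4 rose and 26 fell, without siNS 2, 4 rose and 5 fell, and without siNS 4, 11 rose and 2 fell. Without siTLE3 1, 3 or 4 the counts were 4 and 7, 2 and 15, and 8 and 6. IFITM3 stood at 130.3, 61.8 and 155 CPM in siNS and 50.3, 69.6 and 52.999 CPM in siTLE3 (log2 -1.01 ± 0.23), with siNS 3 within the range of siTLE3. In the direct comparison with siFOXA1, which leaves siNS out, 45 of the 47 genes were higher in siTLE3 and none was lower. That comparison alone cannot tell which siRNA moved them. Antigen presentation genes followed the same libraries, summing to 2710, 1963 and 3113 CPM in siNS and 1984, 2268 and 2066 CPM in siTLE3. Of 18 tested, 1 rose and 3 fell. Without siNS 3, 1 rose and 12 fell, and without siNS 2 or without siNS 4, 1 rose and 1 fell.

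Genes of other biotypes rose more often than they fell. Of 522 tested lincRNA genes 129 rose and 25 fell, of 673 antisense genes 124 rose and 26 fell, and of 719 pseudogenes 138 rose and 60 fell, beside 3460 risen and 4058 fallen of 13321 protein-coding genes. Many of these genes are weakly expressed, where the filter and the table favour rises. RP11-364P22.1 stood at 0.0514, 0.0534 and 0.142 CPM in siNS and 1.96, 2.57 and 3.41 CPM in siTLE3 (log2 4.87 ± 0.49), and RP11-211G3.2 at 1.03, 1.55 and 0.852 CPM and 9.61, 7.899 and 5.002 CPM (log2 2.73 ± 0.28). RP11-127O4.3 fell from 3.24, 2.83 and 2.51 CPM to 0.712, 0.8197 and 0.798 CPM (log2 -1.87 ± 0.28). In these 3 genes the groups did not overlap.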

How the data were processed

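Total RNA of T47D cells was sequenced 48 h after transfection with siTLE3 or siNS, 3 libraries each. The tools named for the authors' own processing, per the submitters' processing notes, are STAR 2.5, HTSeq 0.6.1, besides DESeq2, with build hg19. Their settings, and whether counting used strand, are not given in the sources used here. The authors deposited read counts per gene as whole numbers, which were the only measurement used; 36 other columns of values per sample in the same tables were left out. Libraries carry the number of their deposited column (siTLE3 1, 3 and 4, siNS 2, 3 and 4), which differs from the labels' numbering, so columns were assigned to groups and not to labelled replicates.

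Counts were fitted in R 4.3.3 with edgeR 4.0.16 (TMM, filterByExpr, quasi-likelihood F test, 2-sided), and a gene was called at a Benjamini-Hochberg adjusted p under 0.05 over all genes tested. The standard error is the absolute log2 fold change divided by the square root of F. siTLE3 was tested against siFOXA1 in the same way, on genes listed for both, and the line-by-siRNA term over 12 libraries with MDA-MB-453. The fit was tested on simulated counts. Alternatives were RLE scaling, no filter, DESeq2 1.42.0, a fit of 9 T47D libraries, a replicate block, each library left out, and, chosen after seeing the data, genes with a mean of at least 10 siNS reads.

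Genes were named by a rule: TLE3, the 15 largest rises and falls at 1 CPM or more without overlap, the 10 smallest p and the 10 highest levels per direction, 5 genes of other biotypes per direction, up to 6 members of each list, all TLE, FOXA and nuclear receptor genes, and the 8 smallest p per direction in the other comparisons. Further list members and locus neighbours were named after their values were seen. The members, lists and loci were chosen with earlier results of these data known, and lists are described by counts and medians, with no test. Replicates within a group correlated at 0.9875 to 0.9914 in log CPM and differed by more than sampling noise. Values of a few genes are not reported here.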

Additional observations from a re-analysis of the deposited data

Results flagged for a closer look

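The effect of siTLE3 was tested for a difference between T47D and MDA-MB-453, and 3620 genes passed (edgeR's quasi-likelihood test of the line-by-siRNA term, adjusted). Values below are the log2 fold change in T47D minus that in MDA-MB-453. Among the named genes with the smallest p, the effect was higher in T47D for MCIDAS (3.393), AMOTL1 (2.877), CCNO (2.634), CREB3L1 (2.477), PRSS23 (2.411), PITPNM1 (1.9), C3orf58 (1.841), SFXN2 (1.774) and QSOX1 (1.597). PRSS23, a serine protease gene, rose in T47D (2.03) and fell in MDA-MB-453 (-0.40), and QSOX1 rose in both (2.68 and 1.06). The effect was lower in T47D for KIF5C (-2.081), SIPA1 (-2.049), GOLM1 (-1.925), SLC4A8 (-1.898), MMP16 (-1.451), PVRL1 (-1.264), ATP1B1 (-1.256) and FGFR4 (-1.192). KIF5C, a kinesin heavy chain gene, and ATP1B1, a sodium pump subunit gene, fell in T47D (-1.32 and -0.75) and rose in MDA-MB-453 (0.75 and 0.49).

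Mitotic genes with the largest falls in T47D were lower there than in MDA-MB-453 by the same test, at -1.159 for MAD2L1, -1.123 for DLGAP5, -1.115 for CENPF, -0.9996 for TTK, -0.9429 for ANLN and -0.931 for ASPM.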

How the results depend on the processing

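The counts of genes called kept within 1.5 times of 8218 for T47D siTLE3 against siNS: 8234 with RLE scaling, 8298 with no filter, 7547 with DESeq2, 8046 with 9 libraries fitted together, 7881 among genes with at least 10 mean siNS reads, and 7172 to 8442 with each library left out. At 2-fold or more the count was 1761, and 1445 with that minimum. Against siFOXA1 the counts were 5787 to 6964 with a library left out beside 7119, and for the difference between lines 2736 to 3701 beside 3620. A replicate block on the 2 column numbers that both T47D groups share gave 6633. Libraries with the same number did not deviate together (correlations of -0.0456 and -0.0767), and the numbers are not read as a pairing. No gene named by the rule changed direction in a setting that tested it. Under DESeq2 12 of the 276 genes lost their call, under the block 16, and with a library left out 8 to 15, mostly genes under 3 CPM or interferon-stimulated and mitochondrial genes; BTC, COL3A1, DLL4, DTX1, ERN1, IFITM1, L1CAM, NR3C1 and TRIM22 are among them. ERBB family calls numbered 9, and 5 without siTLE3 3. Ribosomal protein calls numbered 18, and 28 without siTLE3 1. Interferon calls numbered 15 (4 risen, 11 fallen), and 11 risen and 2 fallen without siNS 4, 38 with no filter, 5 with DESeq2 and 7 with the block; the cause was not tested. Depth limits the genes under 1 CPM, where a library holds few reads per gene.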

Other observations

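Genes of TGF-beta and BMP signalling were divided, with 9 risen, 10 fallen and 9 not passed of 28 tested in T47D siTLE3 against siNS. The ligand gene TGFB2 went from 1.39, 2.298 and 2.13 CPM in siNS to 5.96, 6.67 and 6.07 CPM in siTLE3 (log2 1.68 ± 0.21), while TGFB3 fell from 156, 150.03 and 144 CPM to 75.7, 77.6 and 83.4 CPM (log2 -0.93 ± 0.07). ID1, a target of BMP signalling, rose from 24.9, 22.2 and 23.2 CPM to 53.2, 53.4 and 63.6 CPM (log2 1.27 ± 0.09) and ID2 fell at log2 -0.66 ± 0.11. The receptor gene TGFBR1 fell at log2 -0.71 ± 0.06 and BMPR1B rose at log2 1.17 ± 0.20. The groups did not overlap in TGFB2, TGFB3 or ID1.

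Of 27 genes tested from the p53 and cell death list, 10 rose, 7 fell and 10 did not pass. BTG2, an antiproliferative gene, rose from 27.8, 30.5 and 29.1 CPM to 53.2, 64.8 and 57.3 CPM (log2 1.01 ± 0.08) and TP53INP1 at log2 0.84 ± 0.08. ZMAT3 fell from 85.5, 97.4 and 72.7 CPM to 33.4, 31.1 and 25.2 CPM (log2 -1.51 ± 0.11) and GADD45A at log2 -1.52 ± 0.13, and MDM2 and BAX did not pass. In the unfolded protein response 10 of 20 rose and 4 fell (6 rose without siTLE3 3 or without siNS 3), with the secreted chaperone-like factor gene MANF up at log2 0.76 ± 0.09, and HSP90B1 and SEL1L, which act in folding and degradation in the endoplasmic reticulum, down at log2 -0.50 ± 0.06 and log2 -0.73 ± 0.07.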
